A study of Homo sapiens with 8 samples.

Results

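The distal parts of chromosome 8, from position 60000000 to the end, and of chromosome 1, from position 180000000 to the end, were examined in the hg19 build. Members are all peaks of the 8 deposited peak lists that start in these segments, 34810 of 312662 peaks, with 20940 on chromosome 8 and 13870 on chromosome 1. The remaining 277852 peaks are called the rest of the genome. The segments were selected on the measured share of SUPB15 peaks against that of Nalm6, which is high there, so the density of SUPB15 peaks relative to Nalm6 or to the rest of the genome is a description and carries no test.

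The peaks come from chromatin immunoprecipitation with a rabbit monoclonal antibody against ATF4, followed by sequencing, in SUPB15 and Nalm6, established cell lines of acute lymphoblastic leukaemia. The 4 groups are SUPB15 with L-asparaginase at 1 IU/ml for 2 h, untreated SUPB15, Nalm6 with the same dose and time, and untreated Nalm6, each with 2 libraries. All cells grew in RPMI-1640 medium with serum and added glutamine. The labels name no genetic change in any group, and each line represents 1 leukaemia. The labels do not say whether the SUPB15 libraries came from separate cultures, so p-values measure only the spread between these libraries, which may be technical.

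ATF4 is a basic leucine zipper transcription factor whose translation rises when the kinases of the integrated stress response sense a shortage of amino acids. It binds DNA as a dimer, often with a C/EBP partner, and its known targets include genes of amino acid synthesis, transport and tRNA charging. L-asparaginase, an enzyme used against lymphoblastic leukaemia, breaks down asparagine outside the cell. A peak list holds the places where fragments pile up above the surrounding level, so a site can enter it with a tall, narrow pile or with a small excess that just passes the threshold.

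The lists held 9575 to 88302 peaks, and the 2 lists of SUPB15 with asparaginase were of very unequal length (88302 and 41213). As a measure of depth, the genome background (the pile of fragments expected at any position away from peaks) was 3.90 to 4.19 in SUPB15 and 2.21 to 2.97 in Nalm6. Fold enrichment is the pile at the summit over the local background, with 1 added to each, and −log10 q is the peak caller's confidence. Both are as given by the authors' peak caller, and the lowest −log10 q in a list was 1.31 to 1.63.

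SUPB15 peaks were crowded in both segments, and Nalm6 peaks were not. On distal chromosome 8, SUPB15 with asparaginase had 9724 and 5429 peaks, and untreated SUPB15 had 792 and 1340. The Nalm6 lists had 1003 and 1128 peaks there with asparaginase and 741 and 783 without. Every list of SUPB15 with asparaginase therefore held more peaks in this segment than any Nalm6 list, while the 792 and 1340 peaks of untreated SUPB15 lay within and above the range of Nalm6, although these lists were much shorter genome-wide.

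Density was measured over the 1 Mb windows in which any list had a peak, 87 on distal chromosome 8, 70 on distal chromosome 1 and 2720 in the rest of the genome. On distal chromosome 8 the lists of SUPB15 with asparaginase held 112 and 62.4 peaks per Mb, against 26.8 and 12.1 in the rest of the genome. Untreated SUPB15 held 9.10 and 15.4 per Mb, against 3.06 and 2.79 in the rest. The segment was thus 4.17 and 5.15 times as dense as the rest with asparaginase and 2.97 and 5.52 times as dense without. In Nalm6 the same ratio was 0.760 and 0.757 with asparaginase and 0.698 and 0.698 without, so the segment was sparser than the rest in all 4 Nalm6 lists.

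Distal chromosome 1 showed the same picture at a lower level. SUPB15 had 81.2 and 40.1 peaks per Mb with asparaginase and 6.51 and 9.30 without, which was 3.03, 3.31, 2.13 and 3.33 times the density of the rest of the genome in these 4 lists. Nalm6 had 16.1 and 18.3 per Mb with asparaginase and 13.0 and 13.6 without, 1.05 to 1.07 times the density of its rest. The median distance between neighbouring peaks of SUPB15 with asparaginase was 5.65 and 8.23 kb on distal chromosome 8 and 7.64 and 14.2 kb on distal chromosome 1, against 17.5 and 37.9 kb in the rest. SUPB15 peaks with asparaginase covered 3.82% and 1.96% of the windows of distal chromosome 8, against 0.589% and 0.683% for Nalm6 with asparaginase.

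**Figure D1:**
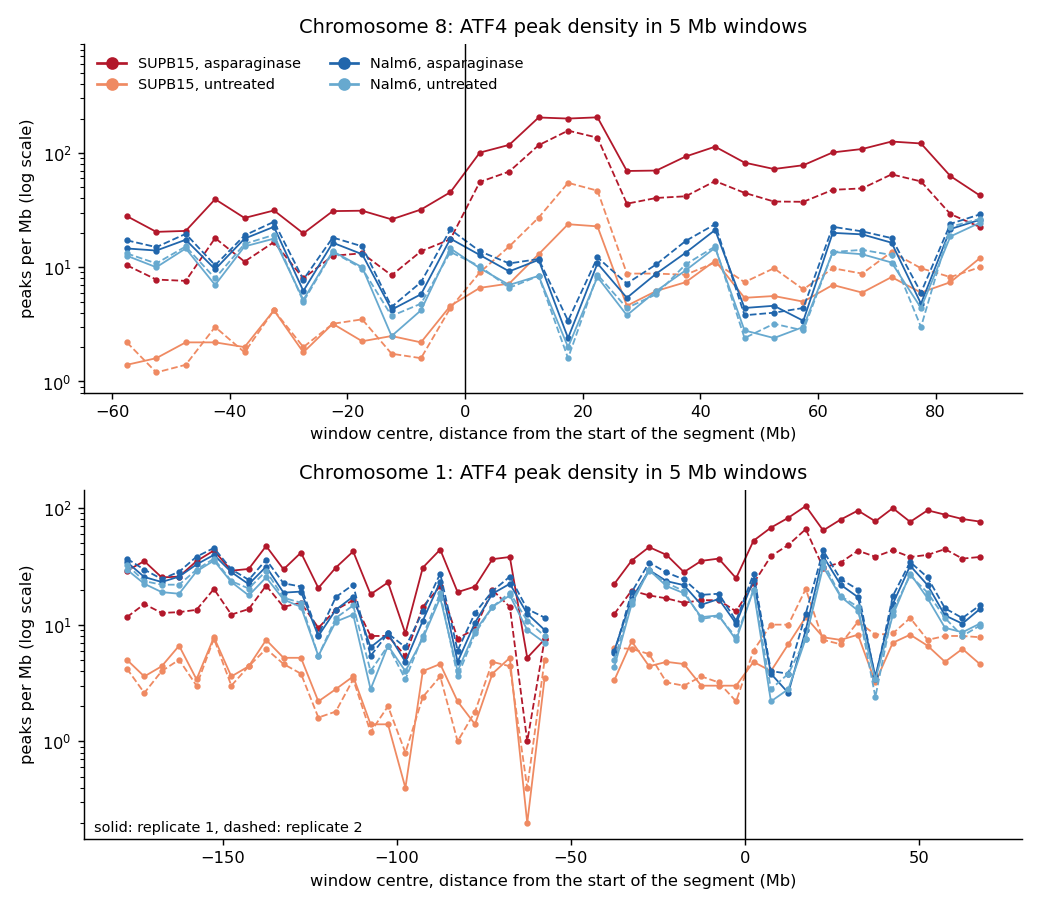
Peaks per Mb (log scale) in 5 Mb windows against distance from the start of each segment in Mb, 1 line per library; no window is drawn where no list had a peak. Right of 0 on chromosome 8, replicate 1 of SUPB15 with asparaginase reaches 205 per Mb (median 101, against 29.5 left of 0), whereas the Nalm6 libraries stay between 1.60 and 43.2 per Mb in the segments.

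Crowding varied along the segments. The 18 windows of 5 Mb on distal chromosome 8 held 42.5 to 205 peaks per Mb (median 101) in replicate 1 of SUPB15 with asparaginase and 22.5 to 157 (median 48.3) in replicate 2. By the mean of both asparaginase libraries the window from 75 to 80 Mb was the densest, with 1001 and 785 peaks in SUPB15 with asparaginase and 119 and 274 in untreated SUPB15. Nalm6 had 12 and 17 peaks there with asparaginase and 10 and 8 without, the lowest density of the segment in each of its 4 lists. The window from 80 to 85 Mb came next by this mean and exceeded it in replicate 1. It held 1026 and 681 peaks with asparaginase and 114 and 234 without in SUPB15, against 54 and 61 with and 41 and 43 without in Nalm6. By the same mean the window at the chromosome's end, from 145 Mb, was the least dense, with 85 and 45 peaks of SUPB15 with asparaginase over 2 windows of 1 Mb. The last of these can be cut short by the chromosome's end, so its density may be too low. Its 42.5 and 22.5 per Mb are the lowest values of the ranges above.

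The 14 windows of 5 Mb of distal chromosome 1 held 52.4 to 103.8 peaks per Mb (median 79.9) in replicate 1 of SUPB15 with asparaginase and 22.6 to 65.8 (median 38.4) in replicate 2. By the mean of both asparaginase libraries the windows from 195 to 200 Mb and from 220 to 225 Mb were the densest. The first had 519 and 329 peaks in SUPB15 with asparaginase, 58 and 101 in untreated SUPB15, 45 and 62 in Nalm6 with asparaginase and 38 and 38 in untreated Nalm6. The first 5 Mb of the segment were the least dense by this mean, with 262 and 113 peaks in SUPB15 with asparaginase.

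The borders are round positions. On chromosome 8, replicates 1 and 2 of SUPB15 with asparaginase had 504 and 279 peaks in the 5 Mb inside the border and 227 and 88 in the 5 Mb outside it. Untreated SUPB15 had 33 and 45 peaks inside and 23 and 22 outside. On chromosome 1 the counts were 262 and 113 inside and 125 and 65 outside with asparaginase, and 24 and 30 inside and 15 and 11 outside without. Nalm6 also had more peaks inside than outside the chromosome 1 border (121 and 136 inside with asparaginase, 51 and 54 outside), but fewer inside on chromosome 8 (64 and 69 inside, 89 and 107 outside). Over the first 1 Mb on chromosome 1, SUPB15 with asparaginase had 30 and 11 peaks inside and 39 and 19 outside, so that its density was not yet raised there.

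Most of the crowding peaks were weak. The threshold of −log10 q of 10 was reached on distal chromosome 8 by 8.52% and 7.0% of the peaks of SUPB15 with asparaginase and by 12.4% and 6.04% of those of untreated SUPB15. In the rest of the genome these shares were 16.5% and 21.1% with asparaginase and 28.1% and 23% without. Distal chromosome 1 lay between, with 9.69% and 9.94% with asparaginase and 17.1% and 10.1% without. In Nalm6 the share was 46.7% and 46.9% on distal chromosome 8 with asparaginase and 42.4% and 45.3% without, near its 49% and 49.96% with and 43.9% and 45.7% without in the rest.

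Counted by strong peaks alone, most of the excess density of SUPB15 was gone. Peaks with −log10 q of 10 or more were 2.16 and 1.71 times as dense on distal chromosome 8 as in the rest with asparaginase, and 1.31 and 1.45 times without. At −log10 q of 20 or more the ratios were 1.29 and 1.23 with asparaginase and 1.21 and 1.24 without. In Nalm6 the ratio on distal chromosome 8 was 0.634 to 0.724 at both thresholds. At −log10 q of 10 or more the ratio on distal chromosome 1 was 1.78 and 1.56 in SUPB15 with asparaginase and 1.29 and 1.47 without, against 1.06 and 1.08 in Nalm6 with asparaginase and 1.06 and 0.997 without. For −log10 q of 20 or more, that ratio was 1.57 and 1.46 in SUPB15 with asparaginase and 1.30 and 1.30 without. The Nalm6 values were 1.19 and 1.12 with asparaginase and 1.03 and 0.999 without.

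**Figure D2:**
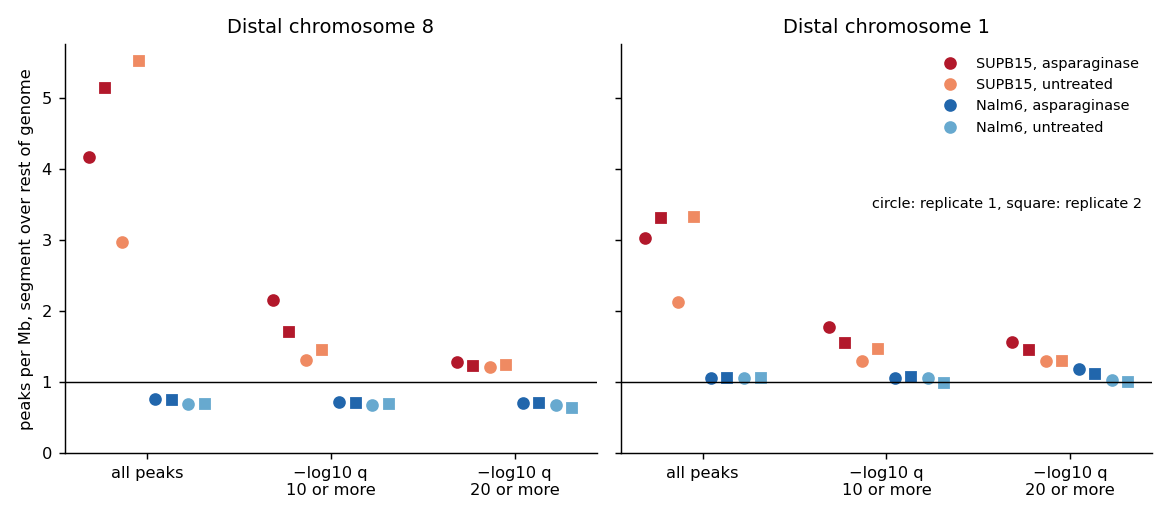
Peak density of each segment divided by that of the rest of the genome, for all peaks and for peaks with −log10 q of at least 10 or 20, 1 point per library. For all peaks the SUPB15 points of distal chromosome 8 spread from 2.97 to 5.52, and at −log10 q of 20 or more they lie between 1.21 and 1.29, with Nalm6 below 1 throughout.

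On distal chromosome 8 the strongest class held the smallest share in each SUPB15 list. In replicate 2 of untreated SUPB15, distal chromosome 8 held 18.1% of the peaks with −log10 q under 3, 17.0% of those from 3 to 5, 14.3% from 5 to 10, 4.96% from 10 to 20 and 3.71% from 20 upwards. In replicate 1 of SUPB15 with asparaginase, the longest list, the share was highest in the class from 5 to 10, at 14.9%. It was 7.83% under 3, 8.27% from 10 to 20 and 3.81% from 20 upwards. The median −log10 q of that list was 4.71 in the segment, against 4.38 in the rest, and its median fold enrichment was 3.47 in both. In the other SUPB15 lists both medians were lower in the segment than in the rest. The 4 SUPB15 lists differed in where the share peaked, but all came to 3.61% to 3.81% in the strongest class. Nalm6 lists held 1.94% to 2.71% of the peaks of every class there.

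For the strongest class the counts behind these shares were 238 of 6246 and 139 of 3815 peaks in SUPB15 with asparaginase and 51 of 1412 and 38 of 1025 in untreated SUPB15. The 95% Wilson intervals of these SUPB15 shares, which cover counting error only, ran from 3.36% to 4.31% and from 3.09% to 4.29% with asparaginase, and from 2.76% to 4.72% and from 2.71% to 5.05% without. They treat the peaks of a list as independent draws, leave out the spread between libraries and are not a test between the lines. For all peaks of distal chromosome 8 the intervals of untreated SUPB15 ran from 7.74% to 8.84% and from 13.3% to 14.7%, without overlap between the replicates. The strongest class on distal chromosome 1 held 3.73% and 3.49% with asparaginase and 3.12% and 3.12% without in SUPB15, and 2.91% and 2.74% with and 2.54% and 2.46% without in Nalm6. The SUPB15 intervals there ran from 3.29% to 4.23% and from 2.95% to 4.12% with asparaginase, and from 2.33% to 4.16% and from 2.22% to 4.37% without.

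The strongest peaks were also counted by rank. Among the 500 strongest peaks of a list by −log10 p, distal chromosome 8 held 18 and 18 in SUPB15 with asparaginase, 20 and 18 in untreated SUPB15, 11 and 11 in Nalm6 with asparaginase and 9 and 9 in untreated Nalm6. Among the 500 strongest by fold enrichment it held 12 and 8 in SUPB15 with asparaginase, 7 and 9 in untreated SUPB15, 12 and 11 in Nalm6 with asparaginase and 4 and 5 in untreated Nalm6. Among the 1000 strongest by −log10 p the segment held 38 and 39 in SUPB15 with asparaginase, 33 and 38 in untreated SUPB15, 24 and 26 in Nalm6 with asparaginase and 17 and 20 in untreated Nalm6. Among the 1000 strongest by fold enrichment it held 23 and 28 in SUPB15 with asparaginase, 27 and 28 in untreated SUPB15, 17 and 19 in Nalm6 with asparaginase and 12 and 15 in untreated Nalm6. With asparaginase, the SUPB15 counts lay above the Nalm6 counts in each of these rankings other than the 500 strongest by fold enrichment, and without treatment they lay above in each. Of the 500 strongest by fold enrichment, distal chromosome 1 held 6 and 10 in SUPB15 with asparaginase, 13 and 15 in untreated SUPB15, 12 and 15 in Nalm6 with asparaginase and 13 and 12 in untreated Nalm6. By −log10 p it held 20 and 22, 19 and 19, 16 and 18, and 17 and 20 in the same order of groups. SUPB15 counts with asparaginase thus lay below those of Nalm6 by fold enrichment and above by −log10 p. The same held among the 1000 strongest, with 21 and 24 against 28 and 28 by fold enrichment and 45 and 38 against 29 and 30 by −log10 p. With asparaginase, the highest fold enrichment on distal chromosome 8 was 20.4 and 18.1 in SUPB15 and 18.6 and 20.9 in Nalm6.

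**Figure D3:**
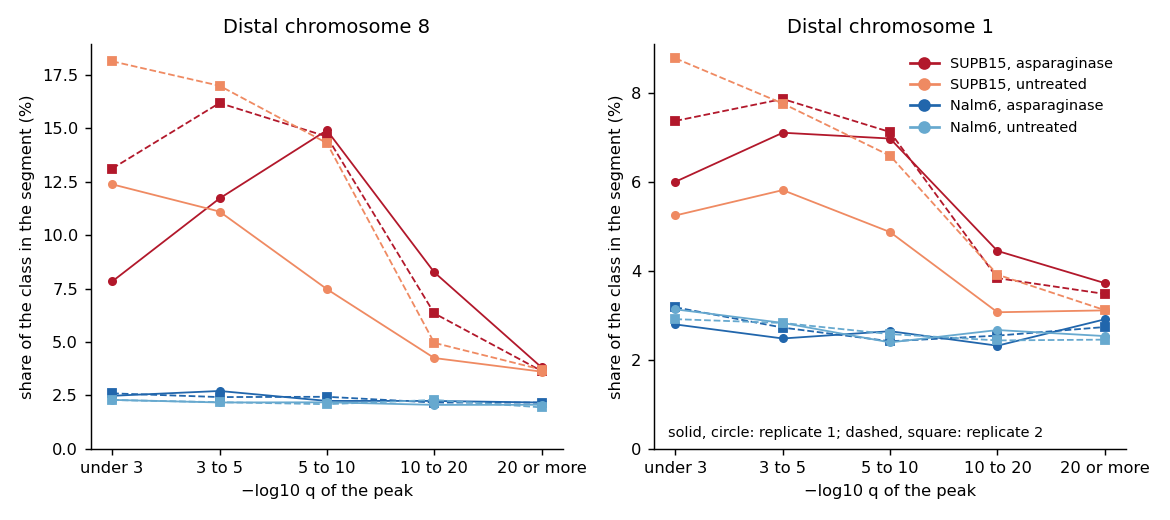
Share of each list that lies in the segment (percent of the peaks of a class), by −log10 q class, 1 line per library. In the SUPB15 lists the weak classes hold up to 18.1% on distal chromosome 8 and the strongest class under 4%, while the Nalm6 lines are flat at 1.94% to 2.71%.

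Replicates agreed on nearly all strong peaks and on a smaller share of weak ones. A partner was any peak of the other library of the group with at least 1 bp of overlap. In replicates 1 and 2 of SUPB15 with asparaginase, 35.5% and 65.4% of the peaks of distal chromosome 8 had a partner, 29.7% and 62.1% on distal chromosome 1, and 30.2% and 68.4% in the rest. The lists differ in length, and a shorter list bounds how many peaks of a longer one can have a partner. In untreated SUPB15, with lists of nearly equal length, 43.7% and 26.5% of the peaks had a partner on distal chromosome 8, 48.9% and 34.4% on distal chromosome 1, and 52.8% and 58.0% in the rest. In Nalm6, 75% to 88.4% of the peaks had one in the segments and the rest.

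By strength, 16.5% and 50.4% of the peaks of distal chromosome 8 with −log10 q under 3 in replicates 1 and 2 of SUPB15 with asparaginase had a partner, against 6.7% and 39.2% in the rest of the genome. From 20 upwards 98.7% and 99.3% had one on distal chromosome 8, against 99.3% and 99.8% in the rest. In untreated SUPB15 all peaks of that class in both segments had a partner, and under −log10 q of 3 it was 25.8% and 14.1% on distal chromosome 8. In Nalm6 all peaks of the strongest class on distal chromosome 8 had a partner, and under −log10 q of 3 it was 45.2% and 20.5% with asparaginase and 31.4% and 30.6% without. A denser list meets a partner by position more often, and the part of density in these shares was not tested.

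Few of the crowding peaks had a counterpart in Nalm6. The segments were chosen for a high share of SUPB15 peaks relative to Nalm6, which by itself lowers such counts. Merged by overlap, the 4 Nalm6 lists held 1346 regions on distal chromosome 8, fewer than the peaks of either SUPB15 asparaginase list. The shares given here are thus a description and no separate sign of the crowding. A peak of any Nalm6 list lay at 7.4% and 10.7% of the peaks of SUPB15 with asparaginase on distal chromosome 8, against 33.3% and 49.6% in the rest. Of the untreated SUPB15 peaks, 35.9% and 19.9% had a Nalm6 peak on distal chromosome 8, against 84.1% and 77.6% in the rest. The shares on distal chromosome 1 were 14.1% and 20.7% with asparaginase and 58.6% and 41.5% without. Among peaks with −log10 q of 20 or more they came to 74.4% and 82.7% with asparaginase and 90.2% and 94.7% without on distal chromosome 8, against 85.8% and 90.1% with and 96.4% and 96.2% without in the rest.

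**Figure D4:**
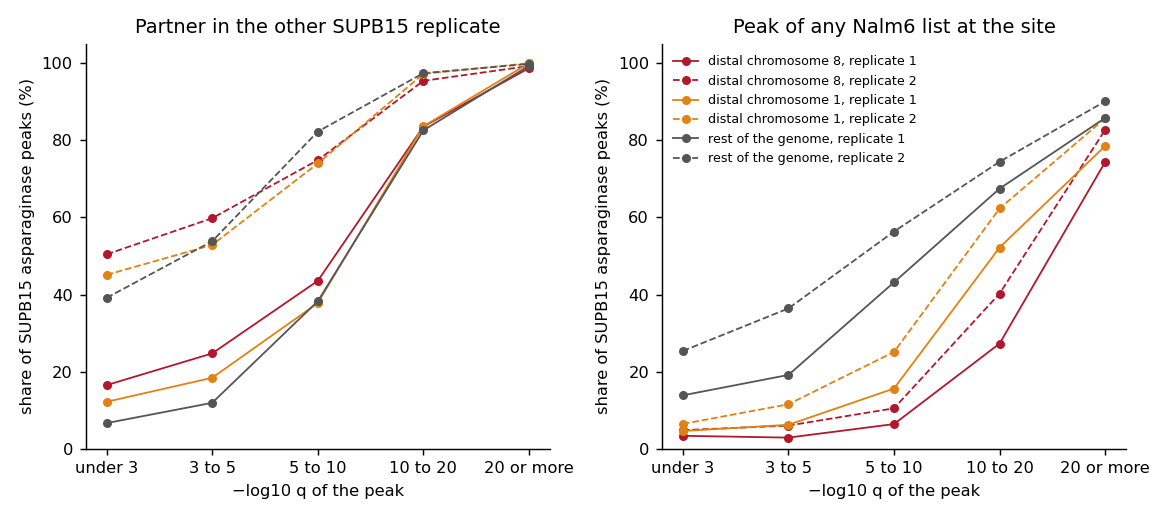
Share (percent) of the peaks of SUPB15 with asparaginase that have a partner in the other replicate (left) and a peak of any Nalm6 list at the same site (right), by −log10 q class, for each segment and the rest of the genome. Left, segments and rest reach at least 98.7% in the strongest class. Right, distal chromosome 8 stays under 11% up to −log10 q of 10 and comes to 74.4% and 82.7% in the strongest class.

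The 4 lists of a line were merged into regions, whether a region was in 1 list or in more. In SUPB15 distal chromosome 8 held 11860 regions, of which 8090 or 68.2% were in a single list, and distal chromosome 1 held 6872, of which 73.5% were in a single list. The share in the rest was 72.7%. Strong regions, with −log10 q of at least 10 in both asparaginase lists, numbered 299 on distal chromosome 8 and 248 on distal chromosome 1, or 3.44 and 3.54 per Mb against 2.35 per Mb in the rest. They made up 8.88% and 15.1% of the regions found in both asparaginase lists, against 29.6% in the rest. Without treatment there were 62 and 58 such regions, 0.713 and 0.829 per Mb against 0.590. In Nalm6 with asparaginase the segments held 419 and 505 strong regions, 4.82 and 7.21 per Mb against 6.76 in the rest.

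Strong regions thus made up the smaller part of the excess, and most of them were sites of Nalm6 too. Of the strong SUPB15 regions with asparaginase, a Nalm6 peak lay at 67.6% on distal chromosome 8, 77.0% on distal chromosome 1 and 84.0% in the rest. Peaks in all 8 libraries were found at 153 regions of distal chromosome 8, 1.76 per Mb, and at 150 of distal chromosome 1, 2.14 per Mb, compared with 1.29 per Mb in the rest.

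Sites shared by all 8 libraries were ranked by their lowest fold enrichment over the libraries. First on distal chromosome 8 was the site from 121457113 to 121457896. Its fold enrichment was 18.1 and 14.4 in SUPB15 with asparaginase, 13.4 and 13.2 in untreated SUPB15, 12.7 and 13.3 in Nalm6 with asparaginase and 12.3 and 13.8 in untreated Nalm6. Replicate 1 of SUPB15 with asparaginase stood above the other 7 libraries, which lay between 12.3 and 14.4. The next sites lay from 66860620 to 66861603, from 95731539 to 95732625 and from 71060145 to 71060913, with fold enrichments of 9.0 to 17.9 over all libraries. By other measures the order differs: 346 and 264 fragments were piled up at the site from 66860620 in SUPB15 with asparaginase and 353 and 361 in Nalm6 with asparaginase, against 180 and 117, and 78 and 88, at the first site.

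First by this rank on distal chromosome 1 was the site from 184019994 to 184021336. Fold enrichment was 17.1 and 20.3 in SUPB15 with asparaginase, 17.5 and 18.4 in untreated SUPB15, 12.3 and 11.9 in Nalm6 with asparaginase and 13.7 and 14.7 in untreated Nalm6. All SUPB15 values exceeded all Nalm6 values, and those with and without asparaginase overlapped in SUPB15. The others lay from 222628379 to 222629556, from 204380476 to 204381667 and from 205090718 to 205091744, with fold enrichments of 10.2 to 16.7.

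At the sites shared by all 8 libraries the lines could be set side by side at the same places. A shared site needs only a listed peak in each library, so weak peaks can be among them. In untreated SUPB15 the median log2 fold enrichment at these sites was 1.82 on distal chromosome 8, against 2.12 in the rest. As the segments were chosen on SUPB15 against Nalm6, the differences between lines are a description. The summit pile, divided by the genome background of its library, had a median log2 difference of SUPB15 minus Nalm6 with asparaginase of −0.73 on distal chromosome 8 and −1.0 on distal chromosome 1, against −1.28 in the rest. For the local background the medians were −0.10 and −0.45, against −0.82. For the fold enrichment they were −0.57 and −0.49, against −0.39. Pile and local background were thus higher relative to Nalm6 in the segments than elsewhere, and the fold enrichment was lower.

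Untreated libraries gave the same order. The medians were −0.85 on distal chromosome 8 and −1.21 on distal chromosome 1 for the pile, against −1.41 in the rest, and 0.15 and −0.37 for the local background, against −0.67. For the fold enrichment they were −0.78 and −0.76, against −0.64. Over the 4 pairings of a SUPB15 with a Nalm6 library, the pile on distal chromosome 8 exceeded the rest by 0.48 to 0.55 on the log2 scale with asparaginase and by 0.46 to 0.65 without, and that on distal chromosome 1 by 0.21 to 0.28 with and 0.11 to 0.25 without. The part of chromosome 8 before the segment, with 74 shared sites, had a median of −1.21 with asparaginase and −1.31 without, and that of chromosome 1, with 268, had −1.34 and −1.53. Over the pairings, that part of chromosome 8 exceeded the rest by 0.07 to 0.25 without treatment, which spans the values of distal chromosome 1, and differed from it by −0.01 to 0.05 with asparaginase. Copy number was not measured here, and its part in these values was not tested.

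**Figure D5:**
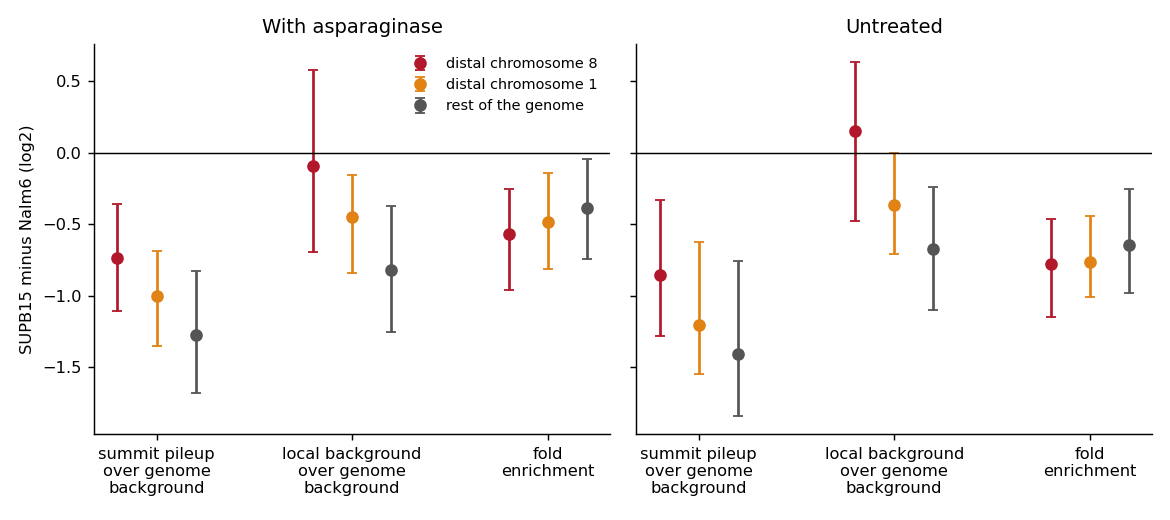
Log2 difference of SUPB15 minus Nalm6 at sites with a peak in all 8 libraries, for the summit pile, the local background and the fold enrichment, with and without asparaginase; points are medians and bars the quartiles over 153 (distal chromosome 8), 150 (distal chromosome 1) and 3509 (rest) sites. The segments lie above the rest for pile and local background and below it for fold enrichment, with wide overlap of the bars.

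The local background was also taken over all peaks, whatever their strength. Its median in SUPB15 was 1.24 and 1.29 times the genome background on distal chromosome 8 with asparaginase and 1.66 and 1.45 times without, against 1.16 and 1.24 with and 1.5 and 1.42 without in the rest. The values for distal chromosome 1 were 1.16 and 1.18 with and 1.79 and 1.33 without.

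The share of peaks in the segments was set against treatment, a comparison that the choice of the segments did not use. On distal chromosome 8 it was 11.01% and 13.2% in SUPB15 with asparaginase, against 8.27% and 14.0% without, and the groups overlapped. The log2 difference was 0.16 (exact two-sided permutation test, p = 1.0). In Nalm6 it was 2.31% and 2.30% with asparaginase, against 2.13% and 2.13% without, a log2 difference of 0.12 with no overlap (exact permutation, two-sided, p = 0.33, which is the lowest p possible with 2 libraries in each group). The share on distal chromosome 1 was 6.44% and 6.81% against 4.76% and 6.79% in SUPB15, a log2 difference of 0.22 (exact permutation, p = 0.667), and 2.60% and 2.61% against 2.62% and 2.59% in Nalm6, a difference of 0.00 (exact permutation, p = 1.0). With labels permuted within each line, both lines together gave 0.14 on chromosome 8 and 0.11 on chromosome 1 (exact two-sided permutation test, p = 0.444 and 0.556, where 0.056 is the lowest possible). Adjusted over the 6 tests, every p was 1.0.

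The SUPB15 differences turned with the processing. With the strongest 9575 peaks of each SUPB15 list, the log2 difference was −1.01 on chromosome 8 and −0.57 on chromosome 1, so that the untreated lists held the larger share. Without replicate 1 of untreated SUPB15 the differences were −0.21 and −0.04.

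Both segments held regions listed with asparaginase alone, most of them weak in SUPB15. Regions in both asparaginase lists of a line but in neither of its untreated lists are called gained, and those in the opposite case untreated-only. Of the SUPB15 regions of distal chromosome 8, 2427 or 20.5% were gained, and of those of distal chromosome 1, 1159 or 16.9%, against 16.7% of all SUPB15 regions. The share on distal chromosome 1 was near that of the genome. In Nalm6, 185 regions or 13.7% were gained on distal chromosome 8 and 198 or 12.9% on distal chromosome 1, against 12.3% genome-wide, so these shares too were near that of the genome. Untreated-only regions on distal chromosomes 8 and 1 numbered 8 (0.0675%) and 3 (0.0437%) in SUPB15, against 0.0272% genome-wide. In Nalm6 they numbered 4 (0.297%) and 19 (1.24%), against 1.21% genome-wide. The SUPB15 counts were taken on the lists as deposited, which differ in length. With equally long lists both segments together held 185 gained and 184 untreated-only regions, and with −log10 q of at least 10 they held 378 and 2.

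Few gained regions of SUPB15 were strong. In both asparaginase lists −log10 q reached 10 at 85 of the gained regions of distal chromosome 8, or 3.5%, and at 86 of those of distal chromosome 1, or 7.42%, against 16.4% in the rest. A Nalm6 peak lay at 8.32% and 19.1% of the gained regions, against 52.8% in the rest. A low share is partly built into the choice of the segments, made on SUPB15 peaks against those of Nalm6, so it is a description. The gained region first by the lower enrichment of both lists lay on distal chromosome 8 from 64131858 to 64132293, at fold enrichments of 10.9 and 8.87, and both Nalm6 asparaginase lists held a peak at the site. Those from 78949590 to 78950081, with 10.4 and 8.32, and from 78917756 to 78918196, with 9.31 and 7.55, had no Nalm6 peak and lay in the window from 75 to 80 Mb. On distal chromosome 1 the regions from 189322454 to 189323099, with 10.7 and 8.73, and from 194888310 to 194888687, with 11.1 and 8.56, had no Nalm6 peak.

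Among the gained regions of Nalm6, those of highest enrichment on distal chromosome 8 lay at 123711628 to 123712155 (10.6 and 11), 123629353 to 123630068 (10.6 and 10.5) and 106966268 to 106966885 (12.1 and 10.5). SUPB15 had peaks at the first and the second of these and none at the third. On distal chromosome 1 they lay from 225708129 to 225708893 (10.98 and 11.3), from 184758046 to 184758591 (10.5 and 9.55) and from 242206267 to 242206899 (9.52 and 12.8), each with SUPB15 peaks. Named untreated-only regions were weaker. In SUPB15 they lay on chromosome 8 from 78686089 to 78686350 and from 115849282 to 115849583 and, for chromosome 1, from 197555832 to 197556080 and from 208067561 to 208067909, with fold enrichments of 3.65 to 5.55; the last of these was also found in both untreated Nalm6 lists and in neither with asparaginase. In Nalm6 they lay on chromosome 8 from 115059311 to 115059644 and from 74086449 to 74086884 and, for chromosome 1, from 201482068 to 201482318 and from 235805470 to 235805874, with 3.53 to 4.75.

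Both lines gained 43 regions on distal chromosome 8 and 40 on distal chromosome 1, or 6.16% and 5.31% of the regions with a peak of each line, against 6.85% genome-wide. The shares in the segments were near or below that of the genome. On chromosome 8 the region from 145681915 to 145682649 had fold enrichments of 5.16 and 5.52 in SUPB15 and 8.39 and 6.94 in Nalm6, and the region from 124604482 to 124604995 had 5.92 and 5.30 in SUPB15 and 5.30 and 7.21 in Nalm6. On chromosome 1 the region from 208344862 to 208345369 had 7.57 and 6.81 in SUPB15 and 10.3 and 8.19 in Nalm6. The region from 224811318 to 224812118, with 9.16 and 8.71 in SUPB15 and 9.12 and 8.71 in Nalm6, was the strongest on distal chromosome 1 and also among the 3 strongest gained in SUPB15.

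Changes in strength were tested where every library of a line had a peak, at 311 regions on distal chromosome 8 and 209 on distal chromosome 1 in SUPB15. The log2 summit pile over genome background was compared with limma across all 4765 such regions of the genome. The median change of all regions, 0.62 on the log2 scale in SUPB15 and 0.37 in Nalm6, was removed, so that higher and lower are relative to it. In SUPB15, 29 regions of distal chromosome 8 were higher (9.32%) and 50 lower (16.1%), against 20.5% and 5.96% genome-wide, and the median change was −0.30. Of those on distal chromosome 1, 34 were higher (16.3%) and 11 lower (5.26%), with a median of −0.15. Before the median was removed, the medians were 0.31 and 0.47, against 0.62 genome-wide. Then 82 (26.4%) and 89 (42.6%) regions were higher, against 49.0% genome-wide, with 1 lower in each segment.

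The SUPB15 calls depended on having both untreated libraries. Without either replicate of untreated SUPB15, no region of the segments was called, and genome-wide 6 were higher and 4 lower without replicate 1 and none was called without replicate 2, although the medians of the segments stayed below 0. An arm of 1 library is assumed there to vary like the other. Without replicate 1 of SUPB15 with asparaginase, 8 regions were higher and 35 lower on distal chromosome 8 and 11 and 11 on distal chromosome 1, and without replicate 2 the counts were 24 and 79, and 37 and 17. Without replicate 1 of untreated SUPB15 the median change was −0.36 on distal chromosome 8 and −0.16 on distal chromosome 1. Without replicate 2 of untreated SUPB15 it was −0.26 and −0.09. Measured by the fold enrichment, 13.8% of the regions of distal chromosome 8 were higher and 14.5% lower, against 20.04% and 11.5% genome-wide, and the median was −0.08. Among regions with −log10 q of at least 10 in 2 libraries, 2 of 152 were higher and 32 lower (21.1%) on distal chromosome 8 and 3 of 122 were higher and 22 lower (18.03%) on distal chromosome 1, against 2.48% higher and 21.3% lower genome-wide. This fit was centred on the median change of these stronger regions, so its shares are not on the scale of the main fit. Within it, the share of lower regions on distal chromosome 8 was near that of the genome. The median change was −0.23 on distal chromosome 8 and 0.01 on distal chromosome 1.

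In Nalm6 the shares called in the segments were close to those of the genome. On distal chromosome 8, 131 of 522 regions were higher (25.1%) and 44 lower (8.43%), and on distal chromosome 1, 168 of 649 were higher (25.9%) and 60 lower (9.24%), against 22.7% and 8.65% of all 25213 regions. The medians were 0.02 and 0.07.

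The region with the largest increase on distal chromosome 1 was the same in both lines. In SUPB15 it lay from 212856290 to 212857067, where 217 and 123 fragments were piled up with asparaginase, against 36 and 24 without, a log2 change of 1.79 ± 0.36 (SE; limma, adjusted p = 0.00023). In Nalm6 it lay from 212856328 to 212857078, with 110 and 125 fragments against 17 and 28, a change of 2.35 ± 0.20 (SE; limma, adjusted p = 2.29e-23). In neither line did the groups overlap. The SUPB15 call, like those of the other named SUPB15 regions, was lost without either untreated replicate, while the change stayed between 1.58 and 1.96 in those fits.

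On distal chromosome 8 the SUPB15 region from 124518105 to 124518818 led, with 199 and 109 fragments with asparaginase against 32 and 33 without, and a log2 change of 1.5 ± 0.36 (SE; limma, adjusted p = 0.0022). It was followed by regions from 107491512 to 107492055 (1.35) and from 105350808 to 105351571 (1.35). The next on distal chromosome 1 lay from 208093037 to 208093610 (1.62) and from 200988320 to 200989019 (1.39). Relative to the median, the regions from 86755094 to 86755436 (−1.20) and from 79609867 to 79610341 (−1.12) on chromosome 8 and from 207824810 to 207825294 (−1.46) and from 197169866 to 197170970 (−0.88) on chromosome 1 were lower. Without removal of the median change, 3 of these 4 were not called, with changes of −0.58, −0.50 and −0.27, and the call from 207824810 held.

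In Nalm6 the leading region of distal chromosome 8 lay from 111125624 to 111126530, with 113 and 111 fragments with asparaginase against 24 and 20 without, and a change of 2.28 ± 0.20 (SE; limma, adjusted p = 1.81e-22). The regions from 61664583 to 61666498 (2.17) and from 129440132 to 129441051 (2.14) came next. On distal chromosome 1 the regions from 205876297 to 205877243 (2.29) and from 228452797 to 228453478 (2.07) followed the leading one. Lower were those from 145064140 to 145064879 (−0.91) and from 91657200 to 91658703 (−0.89) on chromosome 8 and from 231003778 to 231004634 (−1.06) and from 192777673 to 192778596 (−0.92) on chromosome 1.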

How the data were processed

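The data are peak lists, 1 per library. Reads were aligned with BWA to hg19, peaks called with MACS2 and DiffBind used, per the submitters' processing notes; versions and options, and any control library, are not stated there. The deposited fold enrichment is a ratio over local background, and the deposited −log10 p and −log10 q come from the authors' peak caller. Per the labels, 5 ug of antibody went into each immunoprecipitation.

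Fold and −log10 p were solved for the whole-number summit pile and the local background (100% of peaks, tolerance 0.001 in −log10 p); the lowest background of a list was its genome background. Peaks sharing 1 bp were merged. Shares were compared by exact permutation, and log2((pile + 1) / genome background) with limma 3.58.1 (R 4.3.3, trend, Benjamini-Hochberg adjustment at 0.05); the inversion and the fit were tested on simulated data. Windows without a peak of any list were left out of densities.

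Regions were named by rules of rank: the strongest shared, gained and untreated-only ones and the largest called changes. Members and lists were chosen with earlier results of these data known. Regions near listed genes and the count of an ATF4 motif were planned and not computed, as no genome or annotation of this build was used here; for that reason no gene names or sequences are given.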

Additional observations from a re-analysis of the deposited data

Results flagged for a closer look

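The share of strong peaks on distal chromosome 1 moved in opposite directions with asparaginase in the 2 lines. In SUPB15, −log10 q reached 10 in 9.69% and 9.94% of the peaks of the segment with asparaginase, against 17.1% and 10.1% without, a mean difference of −3.81 percentage points. Without replicate 1 of untreated SUPB15 the difference was −0.32 points, and without replicate 2 it was −7.29, an alternative chosen after seeing the data. In Nalm6 it did so in 48.9% and 50.6% with asparaginase, against 43.7% and 43.2% without. Within each line the groups did not overlap, but in SUPB15 the higher asparaginase value and the lower untreated value were close to each other. The rest of the genome moved in the same directions, by −6.77 points in SUPB15 and by 4.70 in Nalm6. The difference between the lines was not tested.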

How the results depend on the processing

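Leaving out a library for peak strength and local background, and moving the borders for peak strength and replicate agreement, were chosen after the data were seen. Log2 share differences, asparaginase minus untreated, turned negative with equally long lists in SUPB15 (−1.01 on chromosome 8, −0.57 on chromosome 1) and in both lines together (−0.48, −0.28), and in Nalm6 on chromosome 1 with borders 10 Mb nearer the end (−0.0021). Without single libraries these differences ran, on chromosome 8, from −0.21 to 0.54 in SUPB15 and −0.049 to 0.33 in both lines, and on chromosome 1 from −0.036 to 0.48 in SUPB15, −0.017 to 0.24 in both and −0.0056 to 0.0105 in Nalm6. Deviations of same-numbered libraries were barely correlated over the regions (r 0.086 in SUPB15, 0.033 in Nalm6). A correlation of this kind cannot decide whether the replicate numbers pair the libraries. The replicate block left the share differences at 0.16, 0.12 and 0.14 on chromosome 8 and 0.22, 0.00 and 0.11 on chromosome 1 for SUPB15, Nalm6 and both. It gave 123 higher and 95 lower regions of the segments in SUPB15 and 332 higher and 157 lower in Nalm6, against 63 and 61, and 299 and 104, without it.

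The share of SUPB15 over that of Nalm6 was 5.14 on chromosome 8 (2.23 at −log10 q of at least 10, 3.51 with equal lists) and 2.36 on chromosome 1 (2.03 at −log10 q of at least 5, 1.39 at 10, 1.80 with equal lists, 2.72 relative to peaks outside chromosomes 1 and 8). The share among strong over that among weak peaks was 0.408 in SUPB15 and 0.916 in Nalm6 (0.904 with borders nearer the end). Peaks of the segments with a partner were 37.3% in untreated SUPB15 (74.9% at −log10 q of at least 10), 81.3% in Nalm6 with asparaginase (72.9% by summits within 200 bp, 71.6% by 50% reciprocal overlap) and 79.4% in untreated Nalm6 (68.8%, 66.5%, and 86.4% at −log10 q of at least 10). Local background of SUPB15 on chromosome 8 over the rest was 1.06 (1.09 for weak peaks only).

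Gained regions of the segments numbered 3586 in SUPB15 (1356 at −log10 q of at least 5, 378 at 10, 185 with equal lists, 3876 to 13543 without single libraries), 383 in Nalm6 (218 with equal lists, 465 to 800) and 83 in both (29, and 89 to 148). Untreated-only regions numbered 11 in SUPB15 (4 at 5, 2 at 10, 184 with equal lists, 34 by summits, 65 by reciprocal overlap, 29 to 362 without single libraries) and 23 in Nalm6 (82, 66, 50, and 47 to 196). Leaving out a library relaxes these definitions by construction; other causes were not tested. Without centring 171 regions were higher and 2 lower in SUPB15, and 498 and 6 in Nalm6. The share of higher regions was then 26.4% on chromosome 8 and 42.6% on chromosome 1 in SUPB15 (49.0% genome-wide). In Nalm6 it was 42.0% and 43.0% (38.7% genome-wide). SUPB15 had 5 higher when 2 libraries had to reach −log10 q of 10, and Nalm6 had 51 lower by fold enrichment. Without single libraries 0 to 61 were higher and 0 to 96 lower in SUPB15, and 204 to 269 and 33 to 76 in Nalm6. Of the values of named regions under alternatives, 130 kept their call and 29 lost it.

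A peak list gives no level below its threshold, so absence from a list is not a level of 0.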
